A study of Mus musculus with 4 samples.

Results

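Hemoglobin RNA in these lungs was followed through 4 genes, Hba-a1, Hba-a2, Hbb-bs and Hbb-bt, taken by symbol from the 32285 genes of the deposited count tables. All 4 had counts in each of the 4 libraries. RNA of single lung cells had been measured in droplets with a 3' kit in 4 groups of mice. These were LAIR1KO mice bearing B16/F10, a mouse melanoma line, LAIR1KO mice with normal lungs, WT mice bearing B16/F10, and WT mice with normal lungs. Lair1 encodes an inhibitory collagen receptor, and no treatment beside the tumor cells was recorded. Each group was 1 library of 3 animals marked with hashtag antibodies, so library and group cannot be told apart. Age, strain, the knockout allele, the way the lungs were dissociated and any lysis of red cells are not given in the sources used here.

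The hemoglobin of adult red cells is built from alpha and beta chains that each carry a heme, the iron group that binds oxygen. Red cell precursors make globin RNA in very large amounts, and young red cells in the blood still carry it, so it can enter suspensions of lung cells. Alpha globin has also been described in the endothelium of small arteries, where it restricts the diffusion of nitric oxide and is reduced by the enzyme Cyb5r3.

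Hba-a1 (ENSMUSG00000069919, chr11:32283511-32284465, plus strand, mm10) and Hba-a2 (ENSMUSG00000069917, chr11:32296489-32297298, plus strand) encode the alpha chain. Hbb-bs (ENSMUSG00000052305, chr7:103826534-103828096, minus strand) and Hbb-bt (ENSMUSG00000073940, chr7:103812524-103813996, minus strand) encode beta chains. The 150 bases before each RefSeq transcription start on GRCm38.p6 are printed 5′ to 3′ on the gene's own strand, because they show how alike the alpha pair is and how the beta pair differs. They span chr11:32283522-32283671 (Hba-a1), chr11:32296342-32296491 (Hba-a2), chr7:103827929-103828078 (Hbb-bs) and chr7:103813924-103814073 (Hbb-bt). Capitals mark the CACCC box, the TATAA box and the CCAAT box. The last is printed as its reverse complement where it lies on the other strand.
Hba-a1: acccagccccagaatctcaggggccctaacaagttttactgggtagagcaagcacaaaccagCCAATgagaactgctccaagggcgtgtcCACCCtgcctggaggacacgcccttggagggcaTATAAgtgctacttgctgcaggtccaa
Hba-a2: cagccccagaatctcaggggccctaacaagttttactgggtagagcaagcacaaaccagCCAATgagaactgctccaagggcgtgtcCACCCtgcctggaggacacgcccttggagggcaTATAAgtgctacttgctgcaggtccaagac
Hbb-bs: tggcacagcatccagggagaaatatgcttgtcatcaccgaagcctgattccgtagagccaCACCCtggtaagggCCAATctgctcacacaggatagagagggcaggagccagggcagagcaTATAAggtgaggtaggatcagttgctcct
Hbb-bt: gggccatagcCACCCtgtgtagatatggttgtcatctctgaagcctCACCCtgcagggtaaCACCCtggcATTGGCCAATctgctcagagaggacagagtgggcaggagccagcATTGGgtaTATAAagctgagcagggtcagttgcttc
All 4 printed stretches of 150 bases held each of these boxes, searched on both strands, and the marked motifs do not overlap. Over the same 150 bases of 32851 RefSeq promoters, 37.4% held the CACCC box, 24.5% the CCAAT box and 14.2% the TATAA box, and 360 (1.10%) held all of them. AGATAA or TGATAA, letters of the GATA motif, were in 9.65% of these stretches and in 0 of the 4. Windows of 300 bases around the starts of Hba-a1 and Hba-a2 matched at all 297 aligned bases. Their transcripts matched at 537 of 538, with 283 of 284 in the last 300 bases, which a 3' kit reads. The split of counts between Hba-a1 and Hba-a2 is therefore uncertain. Whether reads that fit both genes entered the counts was not tested, so their sum may be too low. Hbb-bs and Hbb-bt matched at 580 of 626 transcript bases (92.7%) and at 260 of 297 in the last 300 bases (87.5%).

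The libraries held 25216301 to 28034709 unique molecular identifiers (UMIs, which count captured RNA molecules) in 3295 to 4727 barcodes. Filters of at least 300 genes and at most 10% mitochondrial UMIs left 15793 of 16350 barcodes, of which 8468 carried 1 hashtag and are called kept cells. Each animal had 510 to 1050 kept cells and 2378671 to 6202834 UMIs. Lair1 had 3 and 6 UMIs in the LAIR1KO tumor-bearing and LAIR1KO normal libraries, and 1347 and 655 in the WT tumor-bearing and WT normal libraries. The WT normal library came from males by its transcripts, with Ddx3y at 190 CPM (UMIs per 1000000 of the same sum), and the other libraries from females, with Xist at 1124 to 1297 CPM. Cells of 2 or more libraries shared 30 barcode sequences, none of them among the hemoglobin-rich barcodes described next. As a measure of free RNA, Sftpc and Scgb1a1, genes of lung epithelium, had a UMI in 64.1% and 48.6% of endothelial-like cells, and the neutrophil genes S100a8 and S100a9 in 22.4% and 30.3%.

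Hemoglobin was spread over few barcodes. Over all deposited barcodes Hbb-bs had 13581 UMIs, Hba-a1 7490, Hba-a2 5622 and Hbb-bt 2057, together 28750. After the filters 23885 remained, in 492 of 15793 barcodes (3.12%). Of these 492 barcodes, 336 held exactly 1 hemoglobin UMI, 96 held 2 to 9, 32 held 10 to 99 and 28 held 100 or more. The top 10 barcodes carried 65.7% of the UMIs, and the top 158 (1%) carried 98.6%. Among kept cells, 208 (2.46%) had a hemoglobin UMI, and the top 10 held 91.8% of their 8923 UMIs.

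Barcodes in which the 4 genes made up 1% or more of all UMIs are called hemoglobin-rich. There were 34, of which 32 passed the filters and held 22163 UMIs (92.8% of the filtered total). The cutoff does not fall in a gap: the highest value below it was 0.993%, a monocyte-like cell of a LAIR1KO tumor-bearing animal with 80 hemoglobin UMIs of 8057, and the lowest above it was 1.15%. The filtered rich barcodes numbered 8 in the LAIR1KO tumor-bearing, 17 in the LAIR1KO normal, 5 in the WT tumor-bearing and 2 in the WT normal library. They held 1205 to 20129 UMIs of other genes (median 8478.5) and 650 to 5418 genes. Hashtags of several animals marked 17 of the 32 (53.1%), against 18.8% of all filtered barcodes, while 13 carried 1 hashtag and 2 none. Scrublet, which marks barcodes that resemble simulated doublets, marked 2 of them. The 13 kept ones came from 6 of 12 animals, 10 of them from LAIR1KO normal and 1 from each other library.

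**Figure D1:**
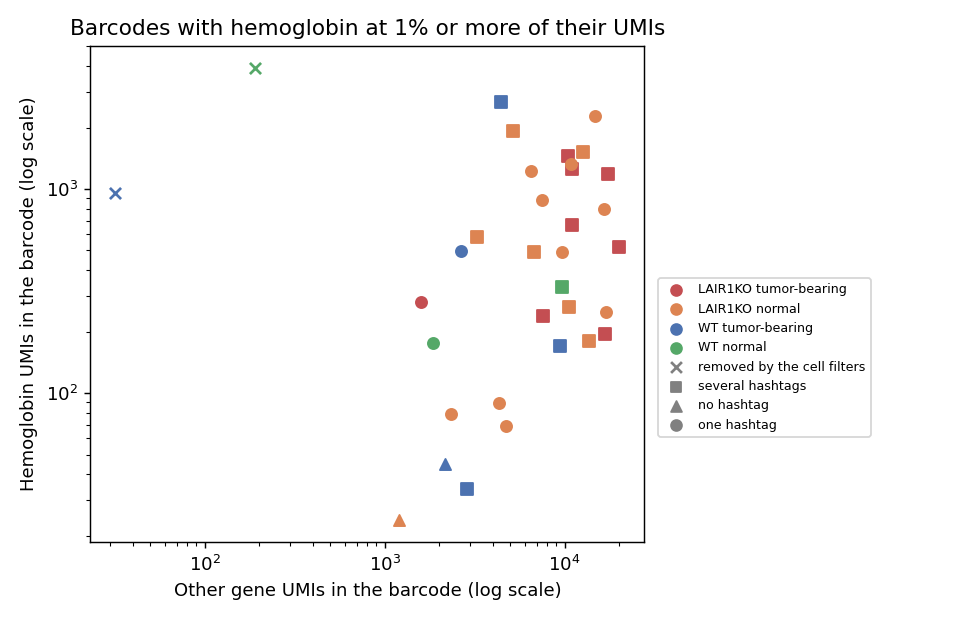
Hemoglobin UMIs (vertical, log scale) against UMIs of other genes (horizontal, log scale) in the 34 barcodes with 1% or more hemoglobin; color gives the library and shape the hashtag status. The filtered barcodes lie at 1205 or more other UMIs, while the 2 crosses, removed by the filters, lie at 32 and 190.

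By their other genes, the 13 kept rich barcodes were aerocyte-like (5), general capillary-like (2), neutrophil-like (2) or in an unnamed cluster with endothelial and fibroblast genes (4). The 2 rich barcodes that failed the filters held few other genes. The WT tumor-bearing one had 959 hemoglobin UMIs of 991 and 35 genes, and the WT normal one 3891 of 4081 and 103 genes. Beside the 4 members their most counted genes included Alas2, the heme synthesis enzyme of red cells, with 12 UMIs, and Bpgm, which makes the red cell metabolite bisphosphoglycerate, with 5.

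Alas2 accompanied hemoglobin in the rich barcodes. It had a UMI in 17 of the 32 filtered ones (53.1%, exact 95% interval 34.7 to 70.9, counting error only; median 8944.5 UMIs per barcode), against 0 of 1170 kept endothelial-like cells below the cutoff (median 5045.5) and 4 of all 8455 kept cells below it. The erythroid list as a whole separates the barcodes less. It has 25 genes, 24 of them in the files, and 8 had a UMI in the filtered rich barcodes. At least 1 UMI of the list was found in 27 of the 32 (84.4%, 67.2 to 94.7) and in 13 of the 13 kept ones, but also in 58.3% of endothelial-like cells and 41.6% of all kept cells below the cutoff. Alas2 led with 74 UMIs. Slc25a37, which brings iron into mitochondria, had 33 and Car2, a carbonic anhydrase, 20. In the endothelial-like cells below the cutoff Car2 had 721 UMIs and Slc25a37 368, genes that other cells also use. None of the clusters was named erythroid.

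Of the 8 heme synthesis genes 7 had a UMI in the filtered rich barcodes, led by Alas1, the enzyme of most tissues (19 UMIs), and all 8 had one in endothelial-like cells below the cutoff. Of the 17 heme and iron handling genes 14 and 17 did, led by the ferritin chains Fth1 and Ftl1. The 9 other globins, among them the embryonic Hba-x and Hbb-y, had 0 UMIs in the rich barcodes. In endothelial-like cells below the cutoff only Cygb (cytoglobin, 55 UMIs) and Ngb had any. Of the partners of alpha globin in endothelium, Cyb5a had 284, Cyb5r3 271 and Nos3, the endothelial nitric oxide synthase, 35.2 CPM in those cells.

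The 4 members did not keep 1 ratio between rich barcodes. In the 32 filtered ones together the alpha genes gave 46.1% of hemoglobin UMIs (45.5 to 46.8), Hba-a2 42.8% of the alpha UMIs and Hbb-bt 11.2% of the beta UMIs. In the 2 removed ones these shares were 37.5, 44.3 and 19.6%. Over the 34 single barcodes the alpha share ran between 25.7 and 94.2%, and the Hbb-bt share of beta UMIs between 0 and 25.2%. The Hbb-bt share was under 5% in 14 barcodes and 5% or more in 20. Hba-a2 made up 32.1 to 65.0% of the alpha UMIs, with a median of 44.5%, a narrower range than that of the alpha share. By library, the alpha share in rich barcodes was 49.4% in LAIR1KO tumor-bearing, 42.8% in LAIR1KO normal, 49.9% in WT tumor-bearing and 38.03% in WT normal. These shares include the 2 removed barcodes. One of them gave 3891 of the 4397 UMIs in WT normal, at an alpha share of 37.4%. The other gave 959 of the 4370 UMIs in WT tumor-bearing, at 37.9%. In filtered barcodes below the cutoff the alpha share was 71.7, 55.2, 50.2 and 66.2% in the same order of libraries. In kept endothelial-like cells it was 71.4% (61.4 to 80.1) below the cutoff and 44.3% with rich barcodes in, and in neutrophil-like cells 55.4% (45.2 to 65.3) below it and 66.5% with them in.

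**Figure D2:**
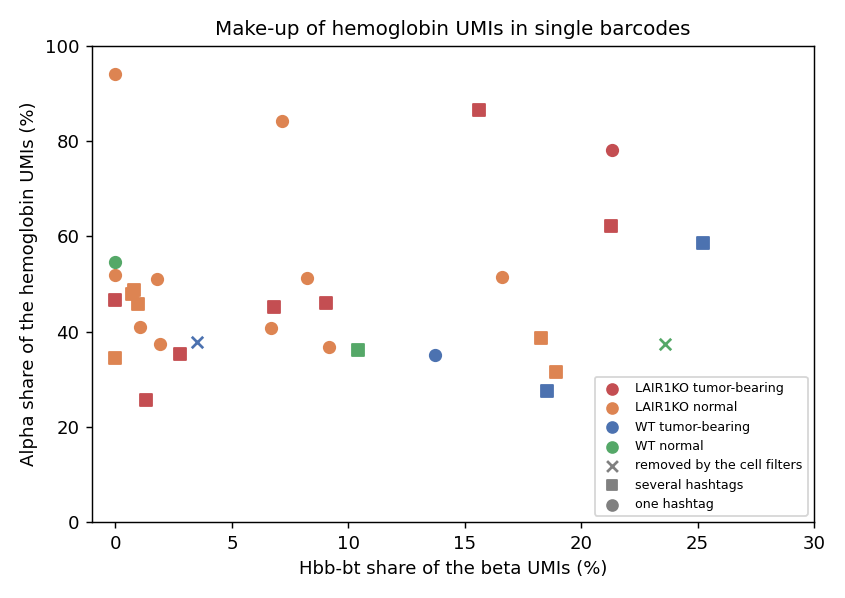
Alpha share of the hemoglobin UMIs (vertical, percent) against the Hbb-bt share of the beta UMIs (horizontal, percent) in single barcodes with 1% or more hemoglobin and at least 50 hemoglobin UMIs; color gives the library and shape the hashtag status. Most alpha shares lie near the median of 45.9%, a few reach 78.1 to 94.2%, and the Hbb-bt shares run between 0 and 25.2%.

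Among cell classes, hemoglobin was highest in endothelial-like and neutrophil-like cells, and a few barcodes set those means. Cells were clustered without the globin genes whose symbols start with Hba, Hbb or Hbq1, among them the 4 members. UMIs were summed per animal and class. Summed hemoglobin in endothelial-like cells was 0 CPM in the lowest of 12 animals, 10.1 at the median and 4460 in the highest, with a mean of 477 ± 1298 (SD). In neutrophil-like cells it was 3.25 at the lowest, 14.3 at the median and 1155 at the highest, with a mean of 141 ± 336 (SD, n = 12). The medians lie far below the means, and the 2 highest sums of each class were those that held a rich barcode. Monocyte-like cells averaged 106 ± 293 CPM (SD, n = 10), of which the 80 UMIs of the cell just below the cutoff were the most, and their median was 0. Pericyte or smooth muscle-like cells averaged 28.7 ± 40.7 (n = 2), B cell-like cells 12.5 ± 25.4 (n = 8) and alveolar type 1-like cells 6.96 ± 7.93 (n = 3). Dendritic cell-like cells averaged 3.16 ± 4.49 (n = 8), interstitial macrophage-like cells 2.82 ± 2.51 (n = 12), alveolar type 2-like cells 2.43 ± 3.48 (n = 11) and fibroblast-like cells 2.14 ± 2.88 (n = 12). Alveolar macrophage-like cells had 0 UMIs in 206 cells, which allows a share of cells with a UMI of up to 1.46% (a limit of 3 counts). The sums of T cell-like (6 animals) and natural killer cell-like cells (4 animals) were also 0.

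**Figure D3:**
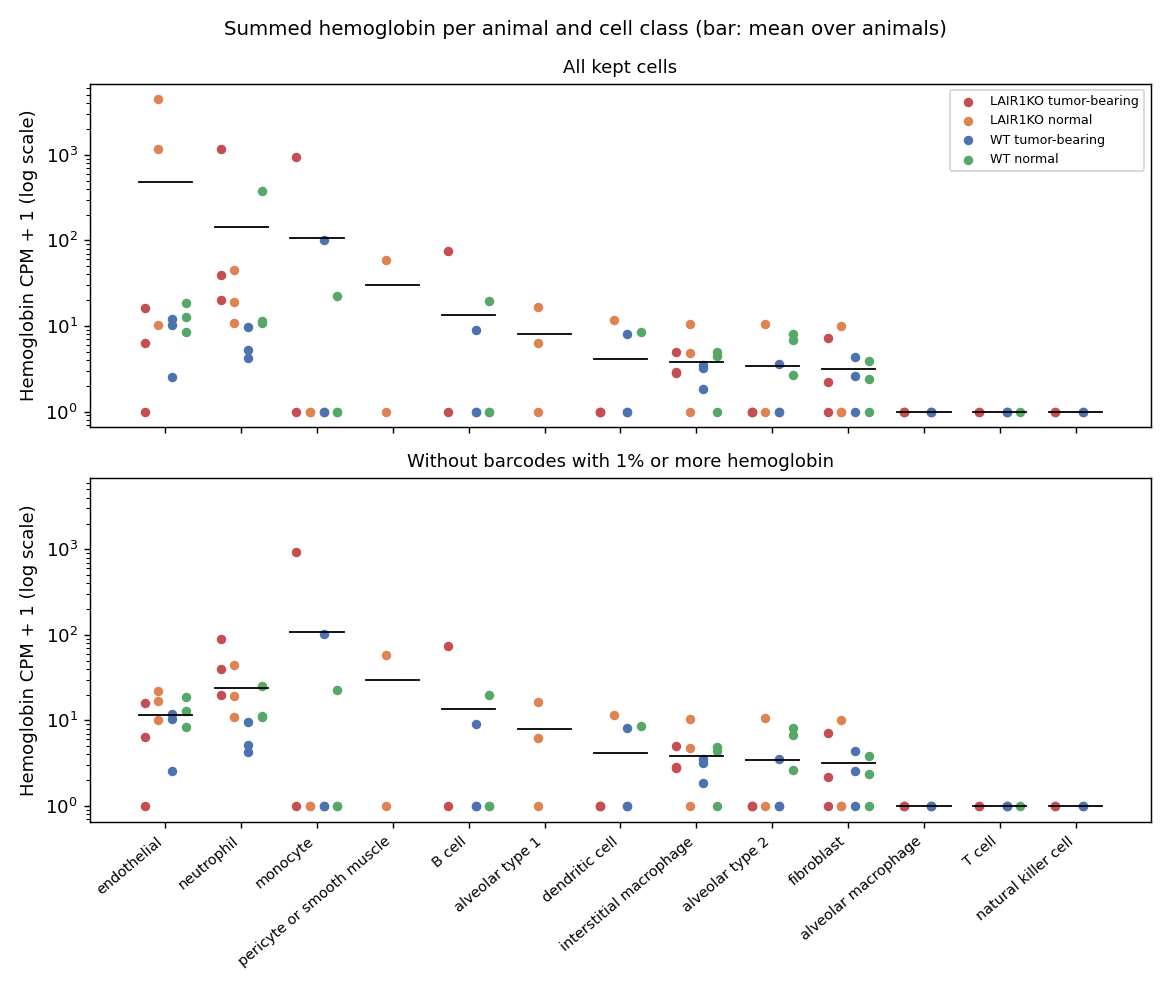
Summed hemoglobin CPM plus 1 (log scale) per animal in each cell class, colored by library, with all kept cells above and without hemoglobin-rich barcodes below; bars are means over animals. Without the rich barcodes the highest endothelial-like animal lies at 20.8 CPM, against 4460 with them, and the monocyte-like value of 934.8 CPM stays.

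Without rich barcodes the endothelial-like mean was 10.4 ± 6.33 CPM and the neutrophil-like mean 23.2 ± 24.2 (SD, n = 12 each). The endothelial-like animals then ranged between 0 and 20.8 CPM and the neutrophil-like ones between 3.25 and 88.6, and the classes overlapped. Alveolar macrophage-like sums came from 6 animals, all tumor-bearing. In the same 6 animals endothelial-like cells below the cutoff held 14 hemoglobin UMIs, 6.44 CPM pooled over cells. This is 3.71-fold a floor of 3 UMIs over the alveolar macrophage-like cells, and it leaves out the error of the 14 UMIs. Per member, Hba-a1 without rich barcodes averaged 5.45 ± 5.36 CPM in endothelial-like cells and was above 0 in 7 of 12 animals. Hbb-bs averaged 2.65 ± 2.05 and was above 0 in 9, Hba-a2 1.61 ± 2.39 in 5, and Hbb-bt 0.705 ± 1.20 in 4.

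Each member was tested between classes with edgeR's quasi-likelihood test, with the animal as a block and Benjamini-Hochberg adjustment over 10416 genes. The 4 members passed the filter on low counts chiefly through sums with rich barcodes, so their counts of calls are a description. Of 48 tests, 26 were called higher in endothelial-like cells and 0 lower. All 4 members were called against alveolar macrophage-like (59.0% of genes called), alveolar type 1-like (27.9%), alveolar type 2-like (58.3%), dendritic cell-like (54.3%), fibroblast-like (60.8%) and interstitial macrophage-like cells (64.7%). One member each was called against monocyte-like (Hbb-bs, 53.1%) and T cell-like cells (Hba-a1, 40.6%). None was called against B cell-like (42.6% of genes called), natural killer cell-like (28.7%), neutrophil-like (77.7%) and pericyte or smooth muscle-like cells (3.71%). At an unadjusted p under 0.05 these last comparisons gave 2, 2, 0 and 3 members, and DESeq2 called 2, 4, 0 and 0. Against interstitial macrophage-like cells the log2 difference was 6.14 ± 0.89 (SE) for Hba-a1 (adjusted p 3.17e-09) and 5.66 ± 0.82 for Hbb-bs (6.01e-09). Against neutrophil-like cells, Hba-a1 differed by -0.36 ± 0.58 and Hbb-bs by 0.31 ± 0.65. So many genes differ between cell classes that shares of members called near these backgrounds are no result about hemoglobin. Along the order of class means, neighbours below endothelial-like cells gave 1 call in 44 tests, Hbb-bs in neutrophil-like minus monocyte-like cells (log2 2.86 ± 1.21, adjusted p 0.0464, 46.1% of genes called), and 11 of 43 with DESeq2. Going down the order of means, the other 10 pairs of neighbours had 35, 28, 37.1, 43.3, 35.6, 65.2, 60.8, 59.6, 34.4 and 5.41% of genes called and 0 members. By edgeR, 43 of the 44 tests between neighbours were thus not called. Some of these compared 0 with 0 and could show no difference. This holds for all members between alveolar macrophage-like and T cell-like, and between T cell-like and natural killer cell-like cells. It also holds for Hbb-bt between alveolar type 1-like and dendritic cell-like, and between dendritic cell-like and interstitial macrophage-like cells.

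Without rich barcodes and without the filter on low counts, 9 of 48 tests were higher and 6 lower in endothelial-like cells by edgeR. Hba-a1 was called higher against 5 of 12 classes. These were alveolar macrophage-like (32.7% of genes called), alveolar type 2-like (35.8%), fibroblast-like (36.5%), interstitial macrophage-like (38.7%) and T cell-like cells (21.1%). The log2 difference was 2.60 ± 0.48 (SE) against interstitial macrophage-like cells (adjusted p 2.60e-07), 2.53 ± 0.46 against fibroblast-like cells (2.02e-07) and 1.33 ± 0.46 against alveolar type 2-like cells (0.0120). The other members were called higher too. Against fibroblast-like cells these were Hba-a2 (edgeR adjusted p 0.0256) and Hbb-bs (0.0282). Hbb-bs was also called against alveolar macrophage-like cells (0.0437), and Hbb-bt against interstitial macrophage-like cells (0.0328). Hba-a2, Hbb-bs and Hbb-bt were called lower than in neutrophil-like cells, with log2 differences of -2.31, -2.27 and -2.31 (48.1% of genes called), and Hba-a1 was not called there (-0.85 ± 0.40). Hba-a1, Hba-a2 and Hbb-bs were called lower than in monocyte-like cells (28.9%), where the cell with 80 hemoglobin UMIs stayed in. No member was called against B cell-like (21.8%), dendritic cell-like (29.6%), alveolar type 1-like (14.4%), natural killer cell-like (13.2%) or pericyte or smooth muscle-like cells (2.7%).

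In barcodes with exactly 1 hemoglobin UMI the alpha genes gave more of the UMIs than in rich ones, in endothelial-like barcodes and over all filtered barcodes together. In filtered endothelial-like barcodes of this kind they gave 71 of 104 UMIs (68.3%, exact 95% interval 58.4 to 77.1), against 46.1% (45.5 to 46.8) in rich barcodes. The share was 57.9% (46.02 to 69.1) in neutrophil-like, 45.7% (30.9 to 60.99) in interstitial macrophage-like, 41.2% (24.6 to 59.3) in fibroblast-like and 71.4% (47.8 to 88.7) in alveolar type 2-like barcodes. Over all filtered barcodes of this kind the share was 58.9% (53.5 to 64.2), also above that of rich barcodes. The endothelial-like interval lies above that of rich barcodes and overlaps those of all 4 other classes. The interval of rich barcodes pools their UMIs, while the shares of single rich barcodes ran between 25.7 and 94.2%. Among kept cells alone the endothelial-like share was 28 of 43 (65.1%, 49.1 to 78.99). Of the 71 endothelial-like alpha UMIs 57 were counted as Hba-a1 and 14 as Hba-a2, a split that is uncertain. The intervals cover counting error only, and cells are not replicates. The part of free RNA and of the Hba-a1 and Hba-a2 read split in this difference was not tested.

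**Figure D4:**
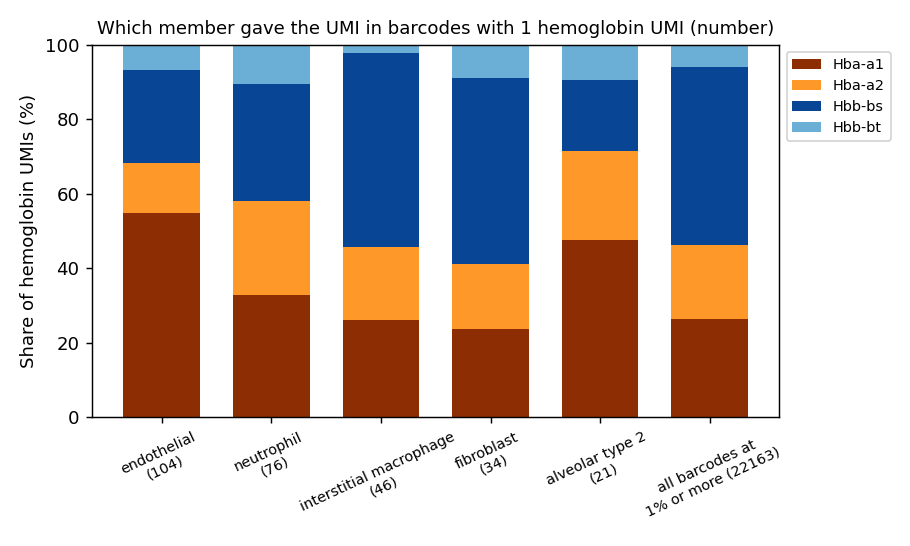
Share of hemoglobin UMIs (vertical, percent) given by each member in filtered barcodes with exactly 1 hemoglobin UMI, by cell class, beside all UMIs of filtered barcodes with 1% or more hemoglobin; numbers in parentheses count UMIs. Hba-a1 and Hba-a2 together make up 68.3% in endothelial-like barcodes and 46.1% in the hemoglobin-rich ones; the split between them is uncertain.

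A hemoglobin UMI was found in 4.84% of kept endothelial-like cells (median 5053 UMIs per cell), against 0 of 206 kept alveolar macrophage-like cells (median 8679.5) and 1.53% of interstitial macrophage-like cells (median 5380.5). Among all filtered barcodes, 1 alveolar macrophage-like barcode held a single Hbb-bs UMI. Neutrophil-like cells had one in 2.04% at a median of 1615.5 UMIs. After thinning to 2000 UMIs per cell, which left out 114 endothelial-like, 1656 neutrophil-like and 29 interstitial macrophage-like cells, the shares were 2.54, 3.10 and 0.541%. Exact 95% intervals were 1.68 to 3.67% for endothelial-like, 1.82 to 4.92% for neutrophil-like and 0.234 to 1.06% for interstitial macrophage-like cells. They pool cells over animals and cover counting error only, and cells are not replicates. The classes also drew on animals unevenly: LAIR1KO normal replicate 1 gave 356 endothelial-like and 21 interstitial macrophage-like cells.

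Within the endothelium, hemoglobin was unevenly spread over animals, and LAIR1KO normal animals with rich barcodes set the means, 1 in general capillary-like and 2 in aerocyte-like cells. General capillary-like cells (marked by Gpihbp1 and Plvap) had summed hemoglobin of 0 CPM at the lowest, 8.74 at the median and 1042 at the highest of 12 animals. In aerocyte-like cells (marked by Car4 and Ednrb), the thin capillary cells of gas exchange, these were 0, 14.2 and 8248 CPM over 9 animals. Larger vessel-like cells had 4.37 and 0 CPM in the 2 animals with 10 or more such cells. The 2 highest aerocyte-like animals, with 8248 and 1605 CPM, and the highest general capillary-like animal were all LAIR1KO normal and held rich barcodes. All other animals lay at 0 to 30.5 CPM in general capillary-like and at 0 to 21.03 CPM in aerocyte-like cells, and the subtypes overlapped.

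**Figure D5:**
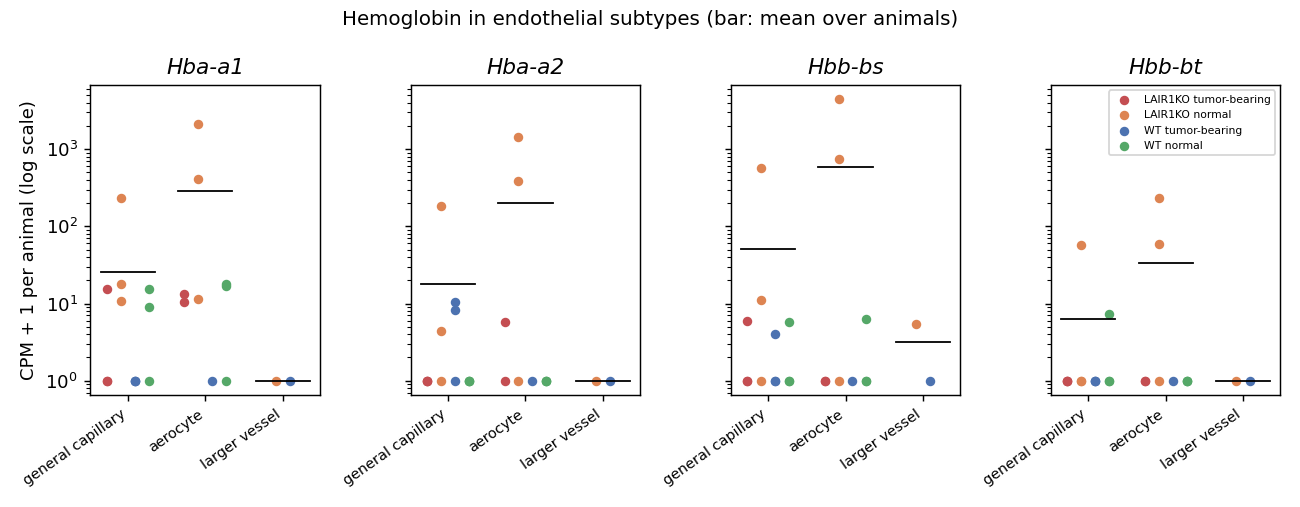
CPM plus 1 (log scale) of each member per animal in general capillary-like (12 animals), aerocyte-like (9) and larger vessel-like cells (2), colored by library; bars are means over animals. The highest point of each panel is a LAIR1KO normal animal, at 4462 CPM for Hbb-bs and 234 CPM for Hbb-bt in aerocyte-like cells.

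Hba-a1 averaged 24.9 ± 66.5 CPM in general capillary-like cells, against 289 ± 700.4 in aerocyte-like cells (SD). Its log2 difference was -2.30 ± 0.49 (SE, edgeR adjusted p 0.000771). Hba-a2 averaged 16.9 ± 52.2 against 202 ± 477 CPM, with a difference of -2.51 ± 0.50 (0.000574). Hbb-bs averaged 49.2 ± 163 against 579 ± 1477 CPM, with a difference of -2.56 ± 0.70 (0.00801). Hbb-bt averaged 5.27 ± 16.3 against 32.5 ± 78.0 CPM, and its difference of -1.39 ± 0.56 was not called (0.0890). Thus 3 of 4 members were called lower, where 20.3% of 6793 genes were called. The members passed the filter on low counts through the sums with rich barcodes, so these calls are a description. In the 9 animals with both subtypes, Hba-a1 was lower in general capillary-like cells in 6, higher in 1 and equal in 2. Summed hemoglobin was lower in general capillary-like cells in 5 and higher in 4. Without LAIR1KO normal replicate 1 the differences were larger, at -5.001 for Hba-a1 and -7.37 for Hbb-bs, and Hbb-bt was called too (-4.81). Without LAIR1KO normal replicate 2 they were smaller, at -0.76 for Hba-a1, -1.07 for Hba-a2 and -0.34 for Hbb-bs, and Hbb-bs was no longer called. DESeq2 called none of the 4, with differences of -1.25 for Hba-a1 and -0.15 for Hbb-bs. Nor did edgeR call any when hashtags were assigned by dominance (the top hashtag holding most of the counts), with -0.46 for Hba-a1 (adjusted p 0.606), -0.33 for Hba-a2 (0.752) and 0.34 for Hbb-bs (0.801). Mean summed hemoglobin of general capillary-like cells was then 567 CPM, against 96.3 CPM with the main assignment.

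No member was called between general capillary-like and larger vessel-like cells (8.04% of genes called), with 3 at an unadjusted p under 0.05 and 0 by DESeq2. Without LAIR1KO normal replicate 2 edgeR called all 4 higher in general capillary-like cells (adjusted p 1.46e-09 to 0.0212), and likewise with no filter on low counts. Without LAIR1KO normal replicate 1 their differences had the other sign and none was called (Hba-a1 log2 -3.86). All 4 were called higher in aerocyte-like than in larger vessel-like cells (12.7%), which rests on 2 animals of the second kind. Hba-a1 and Hba-a2 had 0 UMIs in 89 larger vessel-like cells. Pooled over cells, Hba-a1 in aerocyte-like cells was 104-fold a floor of 3 UMIs over the larger vessel-like cells, and 2.62-fold without rich barcodes. These ratios leave out the spread over animals: LAIR1KO normal replicates 2 and 1 gave 916 and 419 of the 1348 Hba-a1 UMIs. With neither rich barcodes nor filter, edgeR did not call Hba-a1 here (log2 4.57 ± 2.40, adjusted p 0.481). DESeq2 called 0 of the 4 members between these subtypes, and without LAIR1KO normal replicate 1 edgeR called none of them (Hba-a1 log2 1.14). Hbb-bt was also lost without LAIR1KO tumor-bearing replicate 2, WT tumor-bearing replicate 2 or WT normal replicate 2 (adjusted p 0.0519 to 0.0889).

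Once rich barcodes were left out, the members failed the filter on low counts. Without the filter as well, edgeR called 0 of 12 subtype tests, with 0 at an unadjusted p under 0.05. Of all genes, 8.93% were called between general capillary-like and aerocyte-like cells, 3.3% between general capillary-like and larger vessel-like cells, and 5.01% between aerocyte-like and larger vessel-like cells. The general capillary-like minus aerocyte-like difference was then -0.78 ± 0.50 for Hba-a1, with levels of 5.51 ± 6.80 and 9.64 ± 7.31 CPM, and 0.14 ± 1.09 for Hbb-bs. Hba-a1 was above 0 in 6 of 12 animals in general capillary-like and in 7 of 9 in aerocyte-like cells. A hemoglobin UMI was found in 3.50% of general capillary-like, 7.83% of aerocyte-like and 4.49% of larger vessel-like cells, at median depths of 4004, 8201 and 6631 UMIs. Thinned to 2000 UMIs, these shares were 2.02% (1.08 to 3.44), 3.86% (2.07 to 6.51) and 0 of 84 cells (a limit of 3 counts allows up to 3.57%), and the ranges overlapped. These ranges cover counting error only.

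Other genes of the pathway were compared between general capillary-like and aerocyte-like cells in the same edgeR fit, in which the median log2 difference over all genes was -0.0033. Of 3 erythroid genes tested, Car2 was higher (0.55, adjusted p 0.00333), Bpgm lower (-1.34, 0.00176) and the median 0.30. Of 10 heme and iron handling genes, 0 were higher and 3 lower (median -0.14). These were Slc48a1, a heme transporter (-1.01, 4.53e-06), Lrp1, the receptor for hemopexin-bound heme (-0.66, 0.00678), and Slc40a1, the iron exporter ferroportin (-1.89, 0.000910), which was named after its value was seen. None of 3 heme synthesis genes passed (median -0.09), nor did Cygb, the 1 other globin tested (-1.26). Of the partners, Cyb5r3 (0.37, 0.00748) and Nos3 (0.77, 0.0446) were higher in general capillary-like cells, and Cyb5a was 0.07.

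Between conditions, hemoglobin over all kept cells varied widely within groups. Hbb-bs was 4.97, 1.68 and 9.03 CPM in LAIR1KO tumor-bearing animals and 331, 471 and 4.12 in LAIR1KO normal animals. It was 0.968, 0.418 and 60.5 CPM in WT tumor-bearing and 1.15, 1.82 and 20.3 in WT normal animals. The groups overlapped in Hbb-bs. Hba-a1 was 12.1, 0.841 and 22.7 CPM in LAIR1KO tumor-bearing, 166, 245 and 19.6 in LAIR1KO normal, 0.646, 1.05 and 22.1 in WT tumor-bearing and 1.60, 2.12 and 20.04 in WT normal animals. Hba-a1 overlapped too. Hba-a2 lay between 8.25 and 168 CPM in LAIR1KO normal and between 0.910 and 7.22 CPM in WT normal animals, without overlap, where the 3 LAIR1KO normal animals lay above the 3 WT normal ones in 19.3% of genes with 10 or more UMIs. Over the 12 animals Hba-a2 spanned 0 to 168 CPM and Hbb-bt 0 to 35.6 over the 12 animals, with the highest value of each in LAIR1KO normal. Summed over the members, hemoglobin averaged 28.6 ± 23.2 CPM in LAIR1KO tumor-bearing, 541 ± 458 in LAIR1KO normal, 38.2 ± 62.7 in WT tumor-bearing and 19.4 ± 25.2 in WT normal animals (SD, n = 3 each). Without rich barcodes the means were 13.6 ± 15.2, 17.3 ± 13.2, 2.74 ± 1.38 and 5.73 ± 1.92 CPM in that order. The LAIR1KO normal animals then lay at 9.29 to 32.5 CPM and the WT normal animals at 3.66 to 7.46, again without overlap (19.1% of genes). With hashtags by dominance the mean with rich barcodes was 84.2 CPM in LAIR1KO tumor-bearing and 51.4 CPM in WT normal animals.

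No member was called by edgeR in any of the 5 contrasts over 13261 genes. LAIR1KO minus WT in tumor-bearing lung (0.00754% of genes called) gave 0 members at an unadjusted p under 0.05. In normal lung (0.535%) it gave 4, with Hba-a2 at a log2 difference of 4.95 ± 1.35 (SE, adjusted p 0.0767). Tumor-bearing minus normal lung gave 0 in WT (0.498%) and 4 in LAIR1KO (14.8%), with Hbb-bs at -5.38 ± 1.70 (0.0543). The interaction (0.00754%) gave 3. The contrasts that came closest share the LAIR1KO normal library, and in those with the WT normal library sex cannot be told apart from the condition. DESeq2 called 1 member in 1 contrast, Hbb-bs in tumor-bearing minus normal LAIR1KO lung (-5.54, adjusted p 0.0149). Without rich barcodes and the filter on low counts edgeR called 0 of 20 tests, with 4 at an unadjusted p under 0.05.

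Within cell classes, the members failed the filter on low counts in the main fits, so they were not tested there. When each animal was left out some passed the filter, and 0 to 11 tests were called. Endothelial-like cells averaged 6.80 ± 7.64 CPM of summed hemoglobin in LAIR1KO tumor-bearing, 1881 ± 2308 in LAIR1KO normal, 7.25 ± 5.01 in WT tumor-bearing and 12.3 ± 5.15 in WT normal animals. Without rich barcodes the LAIR1KO normal mean was 15.3 ± 5.84 CPM. Neutrophil-like cells averaged 404 ± 650.0, 23.9 ± 17.5, 5.36 ± 2.89 and 132 ± 211 CPM in the same order of groups. Without rich barcodes their values were 38.9, 19.01 and 88.6 CPM in LAIR1KO tumor-bearing animals, against 4.17, 3.25 and 8.66 in WT tumor-bearing animals. These groups did not overlap, on 1 to 23 hemoglobin UMIs per animal. The LAIR1KO tumor-bearing animals lay above all WT tumor-bearing ones in 6.73% of genes with 10 or more UMIs in these sums. With neither rich barcodes nor filter, edgeR called 0 of 81 member tests within classes, with 9 at an unadjusted p under 0.05.

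Over 106 sums of an animal and a class, the genes whose log2 level followed summed hemoglobin most closely were Upp1 (Pearson r 0.54), Ankrd33b (0.53), Adgrg3 (0.53), Mrgpra2a (0.51) and Stfa2l1 (0.49). The sums share libraries, animals and depth, and r is a description. Without the 4 sums of highest hemoglobin, r was 0.52 to 0.56 for these genes.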

How the data were processed

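The 4 droplet libraries held lung cells of 3 hashtagged animals each. The authors deposited raw UMI counts per gene and barcode, with hashtag antibody counts. Per the submitters' processing notes these were made with Cell Ranger 4.0.0, STAR, mm10, R 4.0.0 and Seurat 3.2.0.

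Barcodes with at least 300 genes and at most 10% mitochondrial UMIs were assigned to animals by HTODemux (Seurat 5.3.0, quantile 0.99). Barcodes with several or no hashtags were left out of the tests, which removes doublets between animals only, and doublets marked by Scrublet (scanpy 1.11.5) were left out as an alternative. Cells were clustered on a shared neighbour graph with leidenalg 0.10.2 and named from marker lists. Clustering used 2000 variable genes, 30 principal components, 15 neighbours and Leiden resolution 1.0. Globin genes whose symbols start with Hba, Hbb or Hbq1, among them the 4 members, were left out of it. Barcodes with several hashtags took the cluster of their nearest neighbours. The names are rebuilt and may differ from the study's. Counts were summed per animal and class where 10 or more cells were present. Sums went into edgeR 4.0.16 (TMM, filterByExpr, quasi-likelihood F test, adjusted p under 0.05), with the animal as a block between classes and subtypes of the same animals. The SE beside an edgeR log2 difference was worked back from the test, as the size of the difference over the square root of F. DESeq2 1.42.0 was an alternative. The fits were also run on simulated counts with known differences, drawn around each gene's mean over all sums. These did not imitate RNA held by a few barcodes, so they do not test the fits for the members. Hashtag numbers name animals, and nothing says they pair animals across libraries.

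The members and gene lists were chosen with earlier results of these data known. All 4 members are named. Of each other list counts are given, and at most the 4 genes with the most UMIs are named. Of like genes, the 5 of highest Pearson r are named.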

Additional observations from a re-analysis of the deposited data

Results flagged for a closer look

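Barcodes with hashtags of several animals enter none of the comparisons. Their summed hemoglobin was 1111 CPM in the LAIR1KO tumor-bearing, 554 CPM in the LAIR1KO normal and 503 CPM in the WT tumor-bearing library, each above the 88.9 CPM of the WT normal library. These barcodes were 18.8% of the filtered barcodes and held 61.6% of the filtered hemoglobin UMIs.

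Barcodes that failed the filters held 963 hemoglobin UMIs in the WT tumor-bearing library and 3896 in the WT normal library. One barcode carried 959 of the WT tumor-bearing UMIs and another 3891 of the WT normal UMIs.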

How the results depend on the processing

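Of the tests of single members under the alternatives, 836 stayed on their side of the threshold, 41 gained a call, 34 lost one and 12 changed sign with a call in either fit. Of the 836, 75 changed sign without a call in either fit. The cause of these changes was not tested, except that left-out barcodes and higher minimums lower the counts that the members rest on. Between subtypes 7 of 12 tests were called, but 3 with no replicate block, 3 of 4 with at least 25 cells per sum, 3 with hashtags by dominance, 0 with DESeq2, 12 with no filter on low counts, and 0 with neither filter nor rich barcodes. Leaving out each animal gave 4 (without LAIR1KO normal replicate 1) to 10 calls (without LAIR1KO normal replicate 2). For endothelial-like cells against other classes, 26 of 48 tests were called, but 16 of 32 with at least 25 cells, 41 with no filter, 43 by dominance, 3 of 12 without rich barcodes, and 15 with neither. With no replicate block they numbered 30. Over classes with 8 or more animals 17 of 28 were called, and 15 to 21 when each animal was left out. Neighbouring classes gave 1 call of 44, but 0 with no replicate block, at least 25 cells or DESeq2 size factors, 11 of 43 with DESeq2, 8 with no filter, 2 by dominance and 2 with neither filter nor rich barcodes. Leaving out animals was not run for neighbours.

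Between conditions 0 of 20 tests were called, but 1 with DESeq2, 2 with no filter, 3 without Scrublet doublets, and 0 to 6 when each animal was left out (6 without LAIR1KO normal replicate 3). Within classes no member could be tested in the main fits, while 27 of 81 tests were called with no filter, and 0 to 11 when each animal was left out (11 without LAIR1KO tumor-bearing replicate 1). No paired analysis was possible because the hashtag numbers only name the animals of each library. The share of endothelial-like cells with a hemoglobin UMI, 2.54% after thinning, was 1.46% at 1000 UMIs, and 2.25 to 2.86% when each animal was left out. The endothelial alpha share, 44.3%, was 71.4% without rich barcodes, and 43.4 to 45.8% when each animal was left out. Erythroid UMIs were in 84.4% of rich barcodes, in 100% of those with 1 hashtag, and in 81.5 to 83.9% when each animal was left out.

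The log2 differences that changed sign with a call were as follows. Aerocyte-like minus larger vessel-like Hbb-bt was -0.011 with DESeq2. General capillary-like minus aerocyte-like Hbb-bs was 0.34 by dominance and 0.14 with neither filter nor rich barcodes. Endothelial-like minus monocyte-like Hba-a2 was -3.93 without rich barcodes, and with neither filter nor rich barcodes Hba-a1 was -2.16, Hba-a2 -3.88 and Hbb-bs -2.03. Endothelial-like minus neutrophil-like Hbb-bs was -2.27 with neither and -1.60 without LAIR1KO normal replicate 2, and without LAIR1KO tumor-bearing replicate 3 Hba-a1 was 1.23, Hba-a2 1.54 and Hbb-bt 1.85 there. In the same comparison, calls were gained in the first direction by Hba-a1 (-1.9996), Hba-a2 (-2.27) and Hbb-bt (-1.56) without LAIR1KO normal replicate 2, and by Hbb-bs without WT normal replicate 3 (1.67) or LAIR1KO tumor-bearing replicate 3 (1.49). Mean summed hemoglobin by dominance was also 39.3 CPM in alveolar type 1-like and 10.99 CPM in larger vessel-like cells, against 6.96 and 2.18 CPM. Depth limits all values below the cutoff, since most cells with hemoglobin held 1 UMI.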
